A study of Apostichopus japonicus with 3 samples.

Results

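The intestine of the sea cucumber Apostichopus japonicus during arousal from aestivation was compared with the intestine in deep aestivation, across the transcripts of the whole tissue. Aestivation is the summer dormancy of this echinoderm. Members were the isotigs (transcript sequences assembled from reads) that either of the 2 libraries listed and that reached a mean of at least 1 RPKM (reads per kilobase of isotig, scaled to the aligned reads of the library) over all 3 libraries of the study. This gave 18082 of the 20712 isotigs listed in any library. Isotigs just inside the limit, such as isotig28171, had 1 read in deep aestivation and 0 in the other libraries at a length of 373 bases, and isotig01540, just outside it, had 2 reads in deep aestivation over 747 bases. The 1724 isotigs left out had at most 10 reads over the 2 libraries.

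The study has 1 intestine library for each of 3 labelled stages: deep aestivation, arousal from aestivation and non-aestivation. At least 15 individuals per stage were used. The sources used here give neither strain, age and sex nor whether RNA was pooled. The libraries held 892745, 944773 and 1022383 uniquely aligned reads in that order. As each stage has a single library, the spread between replicates is unknown and no test was made: differences below compare 2 libraries. Where 3 read numbers stand together, the first is non-aestivation, the next deep aestivation and the last arousal. Ranges after a fold are 95% intervals that cover counting error only. They treat reads as independent, and may be too narrow because reads amplified by PCR are not independent molecules. The tables recorded for arousal and non-aestivation carry each other's stage code in their file names. Stages follow the sample labels, and the non-aestivation reads are printed beside the others; any ratio of non-aestivation to deep aestivation would share the deep aestivation library with the comparison made here. If the file names were right, the arousal values here would be those of non-aestivation and the reverse.

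When a dormant sea cucumber stops feeding, its gut shrinks and its metabolic rate falls, and on arousal the gut regrows and digestion returns. The gut epithelium takes up and exports nutrients. Its cells draw energy from the citrate cycle, which strips electrons from acetyl groups in mitochondria, and from the respiratory chain, which passes those electrons to oxygen. In a whole-tissue library, fewer cells of a type and less RNA per cell cannot be told apart.

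Isotigs called higher in arousal outnumbered those called lower among isotigs listed under aerobic respiration (11 against 0), exopeptidases (9 against 0) and isotigs of the organelle inner membrane (12 against 0). Isotigs called lower outnumbered those called higher under the extracellular region and the plasma membrane (7 against 1 each) and under receptor activity (3 against 0). An isotig was called higher or lower where its log2 ratio of RPKM + 0.5 was at least 1 or at most -1 and an exact conditional binomial interval of the fold, with an error rate of 0.001, left out equality. By this rule 619 isotigs were higher in arousal (3.42% of all members) and 975 were lower (5.39%). The remaining 16488 were neither. As the rule uses these 2 libraries, their order in any called isotig follows from the call. Of the higher isotigs 271 were 4-fold or more apart and 67 at least 16-fold, and of the lower ones 518 and 129. Reads were counted where they aligned uniquely, and 722 named protein matches were shared by 1721 isotigs, so the split of reads between isotigs with the same match is uncertain. The balance of the calls depended on the scaling: with median-ratio scaling 757 isotigs were higher and 790 lower. Upper-quartile scaling gave 767 and 781. The median log2 ratio of all members was -0.20, and these scalings shifted it by 0.13 and 0.14.

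**Figure D1:**
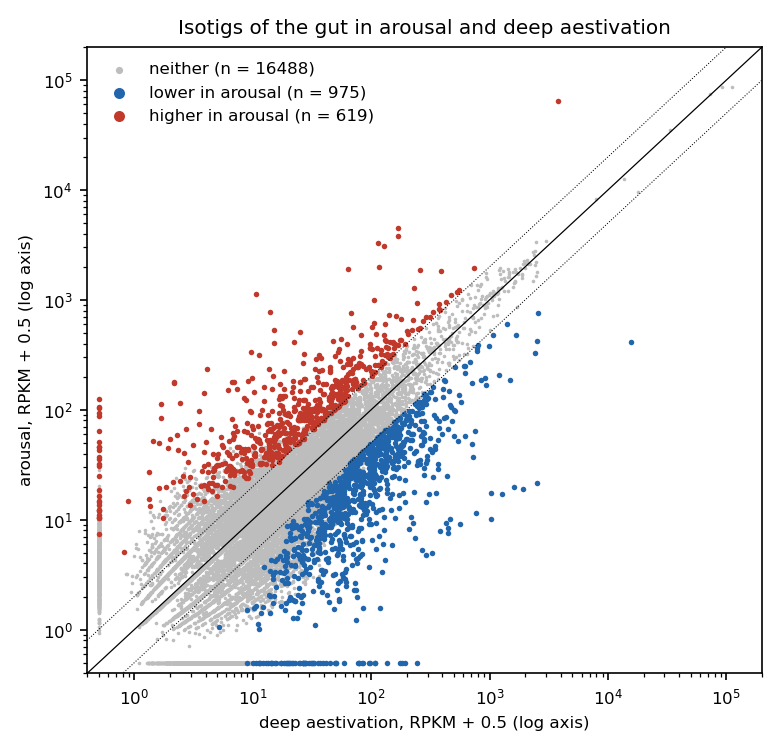
Each point is 1 of the 18082 isotigs, with its RPKM + 0.5 in deep aestivation on the horizontal axis and in arousal on the vertical axis, both log axes. The solid line marks equality and the dotted lines a 2-fold difference. The 619 isotigs called higher lie above the lines and the 975 called lower lie below them, and points on the left and lower edges had 0 reads in 1 library. The red point far above the line on the upper right is the intestinal fatty acid binding protein.

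The direction of the summed shares of called isotigs is fixed by the rule of the call. A place of non-aestivation between the other 2 libraries can come from the same choice. The higher isotigs together held 3.40% of the reads in deep aestivation and 17.4% in arousal, against 8.19% in non-aestivation. More than any other isotig, this was intestinal fatty acid binding protein 2 (isotig19264), which binds fatty acids in the cytosol of absorptive cells. It had 16574 non-aestivation reads, 2849 deep aestivation reads and 51380 arousal reads, or 19094, 3759 and 64056 RPKM, and was 17.0-fold higher in arousal than in deep aestivation (95% interval 16.4 to 17.7). The lower isotigs held 14.8% of reads in deep aestivation and 3.45% in arousal, against 8.24% in non-aestivation. Here the weight was spread more widely. The 10 largest differences summed to 2.54 percentage points of the 11.4 points of all lower isotigs, against 7.36 of 14.0 points among the higher ones.

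Among the 10 higher isotigs with the largest differences in RPM (reads scaled to 1000000 aligned reads of the library), 3 matched porins, the channels of the mitochondrial outer membrane. Isotig10241 had 812 non-aestivation reads, 191 deep aestivation reads and 5444 arousal reads (26.9-fold higher, 23.3 to 31.3). Isotig14866 had 532, 164 and 4184 reads in that order (24.1-fold, 20.6 to 28.3), and isotig22637 had 105, 35 and 1131 (30.5-fold, 21.8 to 44.1). For each of these, arousal was the highest library and deep aestivation the lowest. An antistasin-like protein (isotig23198), which matches a protease inhibitor known from leeches, had 286, 91 and 2149 reads (22.3-fold, 18.1 to 27.8). Cathepsin L2 (isotig13709), a lysosomal protease, had 1106, 387 and 2272 reads (5.55-fold, 4.98 to 6.19). The list also held actin (isotig17429), with 1281, 355 and 1771 reads (4.71-fold, 4.20 to 5.30), and the alpha subunit of mitochondrial ATP synthase (isotig13551), with 1641, 764 and 1809 reads (2.24-fold, 2.05 to 2.44). The other 2 were a hypothetical protein (isotig13324, 2279, 540 and 4082 reads, 7.14-fold, 6.53 to 7.83) and an isotig without a protein match (isotig14028, 2.32-fold, 2.12 to 2.53).

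The 10 lower isotigs with the largest differences included 3 without a protein match and 1 hypothetical protein. The first of them, isotig26827, had 1392 non-aestivation reads, 6058 deep aestivation reads and 169 arousal reads (37.9-fold lower, 32.6 to 44.5). Another, isotig10156, had 65, 2140 and 19 reads, and those of deep aestivation covered 43.2% of its length. The hypothetical protein (isotig13652) had 1236, 2743 and 35 reads (82.9-fold lower, 59.5 to 119). Angiopoietin-like 7 (isotig15025), a match to a family of secreted glycoproteins with a fibrinogen-like domain, had 1669, 3034 and 438 reads (7.33-fold lower, 6.63 to 8.12). Betaine-homocysteine S-methyltransferase 1 (isotig13345), which makes methionine from homocysteine with betaine as methyl donor, had 557, 2594 and 36 reads (76.3-fold lower, 54.9 to 109). Deep aestivation was the highest of the 3 libraries for each of these 5 isotigs, and arousal the lowest.

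Others on the lower side were enzymes and regulators. A trypsin-like serine protease (isotig21645) had 6, 1169 and 12 reads (103-fold lower, 58.8 to 200.1), while isotig13602, with the same match, had 1220, 7 and 27 and no call. A long-chain acyl-CoA dehydrogenase (isotig13249), which takes the first step of fatty acid oxidation, had 28, 1272 and 277 reads (4.86-fold lower, 4.26 to 5.55). For isotig21645 and isotig13249 the non-aestivation library was lowest. Activating transcription factor 5 (isotig14003), a stress-responsive regulator in vertebrates, had 1194, 2182 and 994 reads (2.32-fold lower, 2.15 to 2.51), and a C-type lectin (isotig15031), of a family of sugar-binding proteins, had 836, 2076 and 631 (3.48-fold lower, 3.18 to 3.81).

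**Figure D2:**
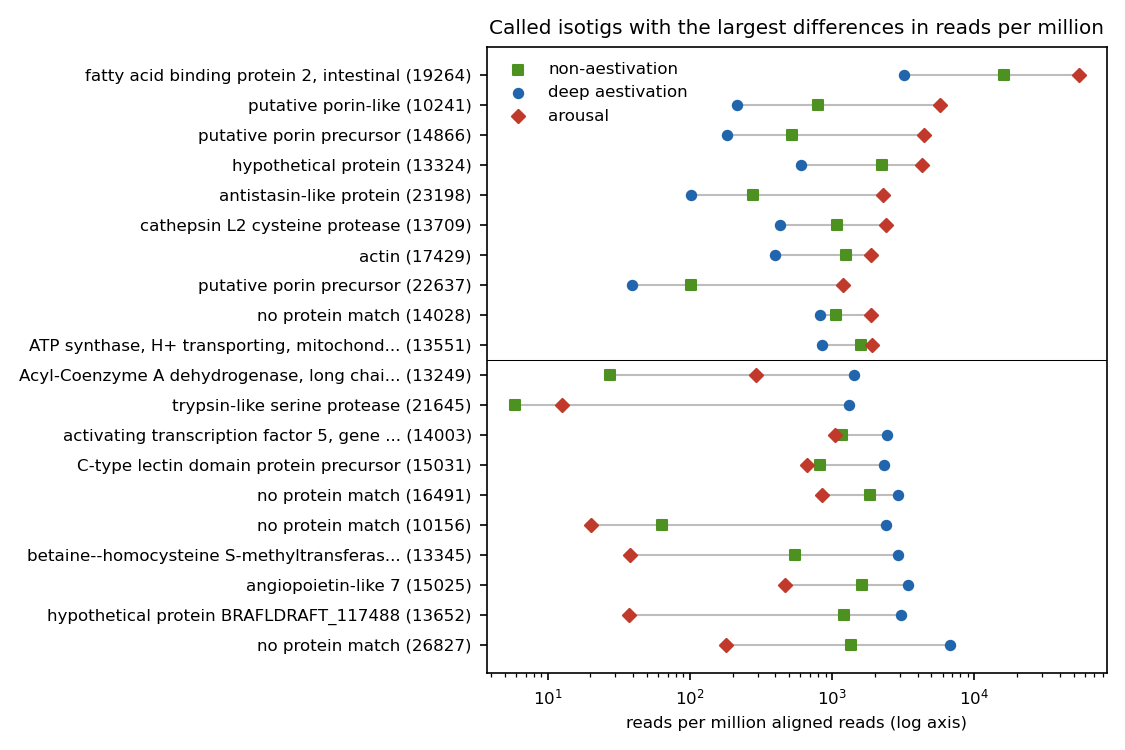
RPM (log axis) is shown in the 3 libraries for the 10 called higher isotigs (upper rows) and the 10 called lower isotigs (lower rows) with the largest differences between arousal and deep aestivation, labelled by protein match and isotig number. In the upper rows arousal (diamonds) is the highest of the 3 and deep aestivation (circles) the lowest. In the lower rows deep aestivation is the highest, and non-aestivation (squares) lies below arousal for the acyl-CoA dehydrogenase and the trypsin-like protease.

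By ratio, isotigs were ranked among those with a named match, at least 50 reads and a mean RPKM of at least 5. The 12 highest included 4 isotigs matching porins, the antistasin-like protein and enzymes of folate and serine metabolism. Isotig14866 and isotig22637 share 1 porin match, and isotig10241 and isotig29276 share another. The phosphoserine phosphatase (isotig16443), which makes serine in its last step, had 120 non-aestivation reads, 11 deep aestivation reads and 339 arousal reads (29.1-fold higher, 16.1 to 58.9). Methylenetetrahydrofolate reductase (isotig13139) had 312, 24 and 918 reads (36.1-fold, 24.1 to 56.7). A cellular retinol-binding protein (isotig24421), a carrier of vitamin A, had 109, 3 and 93 reads (29.3-fold, 9.72 to 145). Some of the highest ratios rest on few reads or on part of an isotig. The ribosomal L10e/P0 isotig10296 had 121, 1 and 100 reads, and in arousal these covered 20.1% of its length. Another isotig with this match, isotig10295, had 620, 284 and 329 reads and no call. A GTPase IMAP 7 match (isotig16046) had 0, 1 and 59 reads, covering 66.1% in arousal.

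Among the 12 lowest, 4 matched proprotein convertase subtilisin/kexin type 9, which in vertebrates lowers the number of low-density lipoprotein receptors, and 5 matched digestive hydrolases or lysozyme apart from the trypsin-like isotig21645. Pancreatic triacylglycerol lipase (isotig14718) had 9 non-aestivation reads, 594 deep aestivation reads and 11 arousal reads (57.1-fold lower, 31.7 to 115). A zinc carboxypeptidase (isotig14682), which trims amino acids from protein ends, had 4, 66 and 0 reads. Its level was 23.3-fold lower where 0 reads are set to a floor of 3, and its 95% interval starts at 18.4. A subtilisin/kexin match (isotig17674) had 3, 104 and 1 reads (110.1-fold lower, 19.3 to 4.39e+03) and its reads covered 94.5% of its length in deep aestivation. Further subtilisin/kexin matches had 0, 60 and 0 reads (isotig07646) and 0, 69 and 0 reads (isotig07395), covering 23.8% and 24.2%. At the same floor they were 21.2-fold and 24.3-fold lower, with intervals that start at 16.7 and 19.3. In all the isotigs named in this paragraph deep aestivation stood above both other libraries. They were chosen for a low ratio of arousal to deep aestivation, so the order of those 2 libraries follows from the choice. Isotig07646 and isotig07395 passed the read and RPKM limits through deep aestivation alone, which leaves little room for non-aestivation reads to be informative. Isotig17674 and isotig07646 share the same best match.

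Gene ontology (GO) terms group the members by process, function and cell component, as the tables list them. Terms there are of mixed breadth, and a member counts only under the terms listed for it. Of the members 4552 carried any term. These were longer (median 982 bases) and deeper (median 26 reads over both libraries) than the 9177 members with neither a term nor a protein match (644 bases, 15 reads). Of the members with a term 5.43% were called higher and 3.84% lower. Of the members with neither, 2.27% were higher and 5.87% lower. The median log2 ratio was -0.05 in the first class and -0.33 in the second, and 0.10 and -0.30 over those with at least 50 reads. Members with neither took 43.4% of reads in deep aestivation and 36.1% in arousal. Calls also moved with depth: 0 of the 6104 isotigs with fewer than 10 reads were called either way, 2.09% and 4.04% of the 7422 isotigs with 10 to 49 reads were called higher and lower. The part of length and depth in these shares was not tested.

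**Figure D3:**
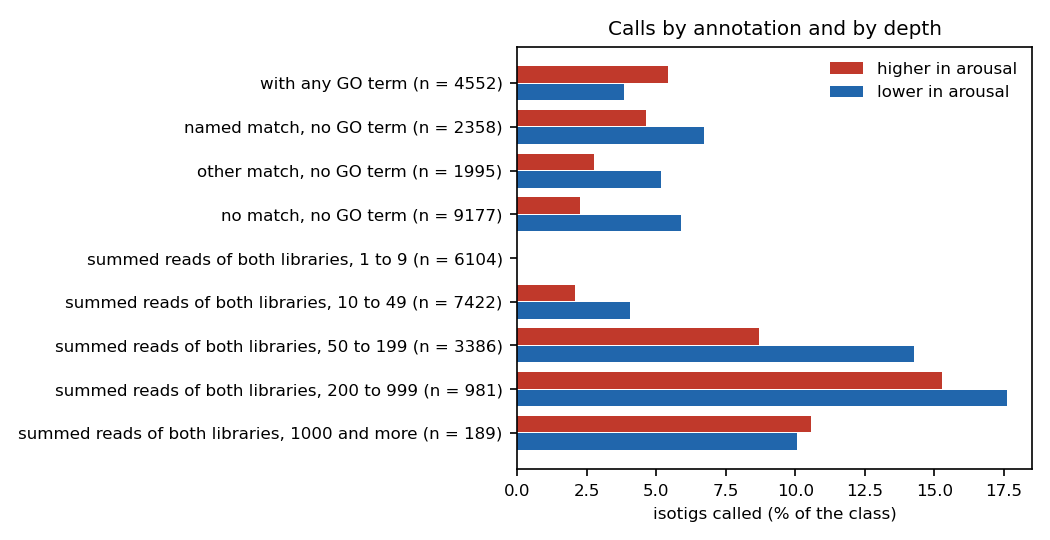
Bars give the percent of isotigs called higher (red) and lower (blue) in arousal, by annotation class and by the summed reads of both libraries, with the number of isotigs in each class. Lower calls outnumber higher calls in the classes without a GO term, with 5.87% against 2.27% where there is no protein match, and higher calls outnumber lower ones among isotigs with a GO term, with 5.43% against 3.84%. No isotig with fewer than 10 reads is called.

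In all, 218 terms had at least 20 members. The median log2 ratio lay at least 0.5 above that of all members in 32 terms and at least 0.5 below it in 7. Against the median of the members annotated in the same ontology the counts were 22 and 14. The 6 highest and 6 lowest terms of each ontology are described next. None of these 36 medians changed sign under the 3 other scalings, and none could be expected to. The scalings moved the median of all members by 0.09 to 0.14, and the term median nearest 0 was -0.26.

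Among GO Process terms, aerobic respiration stood highest. Of its 22 members 11 were called higher and 0 lower, where 5.84% of the members with a process term were called higher and 3.96% lower. The median log2 ratio was 1.25 (quartiles 0.71 and 1.65), beside -0.01 over members with a process term. The term held 0.0975% of reads in deep aestivation (95% interval 0.0911 to 0.104), 0.237% in arousal (0.227 to 0.247) and 0.151% in non-aestivation. The 22 isotigs had 19 different best matches. Whether isotigs that share a match are parts or variants of 1 gene was not tested.

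The members span the citrate cycle. Citrate synthase, which opens the cycle, had 142 non-aestivation reads, 57 deep aestivation reads and 212 arousal reads in isotig15148 (3.51-fold higher, 2.61 to 4.80), and 26, 7 and 30 in isotig27448 (4.05-fold, 1.74 to 10.9). Aconitase, the next enzyme, had 106, 72 and 183 reads in isotig15201 (2.40-fold, 1.82 to 3.20) and 130, 83 and 228 in isotig17219 (2.60-fold, 2.01 to 3.38). In these 4 isotigs deep aestivation was lowest and arousal highest. Isocitrate dehydrogenase (isotig13396), which releases the first carbon dioxide, had 85, 41 and 82 reads and was not called (1.89-fold, 1.28 to 2.82).

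The later steps were less even. The 2-oxoglutarate dehydrogenase isotig23160 had 33, 47 and 51 reads, with a ratio of 1.03 (0.676 to 1.56), and its partner dihydrolipoyl dehydrogenase (isotig13660) had 89, 80 and 135 (1.59-fold, 1.20 to 2.13). Neither was called. Succinyl-CoA synthetase alpha (isotig24629) had 43, 25 and 64 reads (2.42-fold, 1.5 to 4.01). The subunits of succinate dehydrogenase, which is also complex II of the respiratory chain, stood apart from each other: the iron-sulfur subunit (isotig25871) had 41, 33 and 73 reads (2.09-fold, 1.37 to 3.26), and the small cytochrome b subunit (isotig18908) had 85, 94 and 105 (1.06-fold, 0.791 to 1.41). Malate dehydrogenase, which closes the cycle, had 285, 85 and 290 reads in isotig16250 (3.22-fold, 2.52 to 4.16). Its cytosolic form (isotig18460) had the most reads of the term, with 253, 89 and 422, and without it the term's share of reads was still 2.20-fold higher in arousal.

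**Figure D4:**
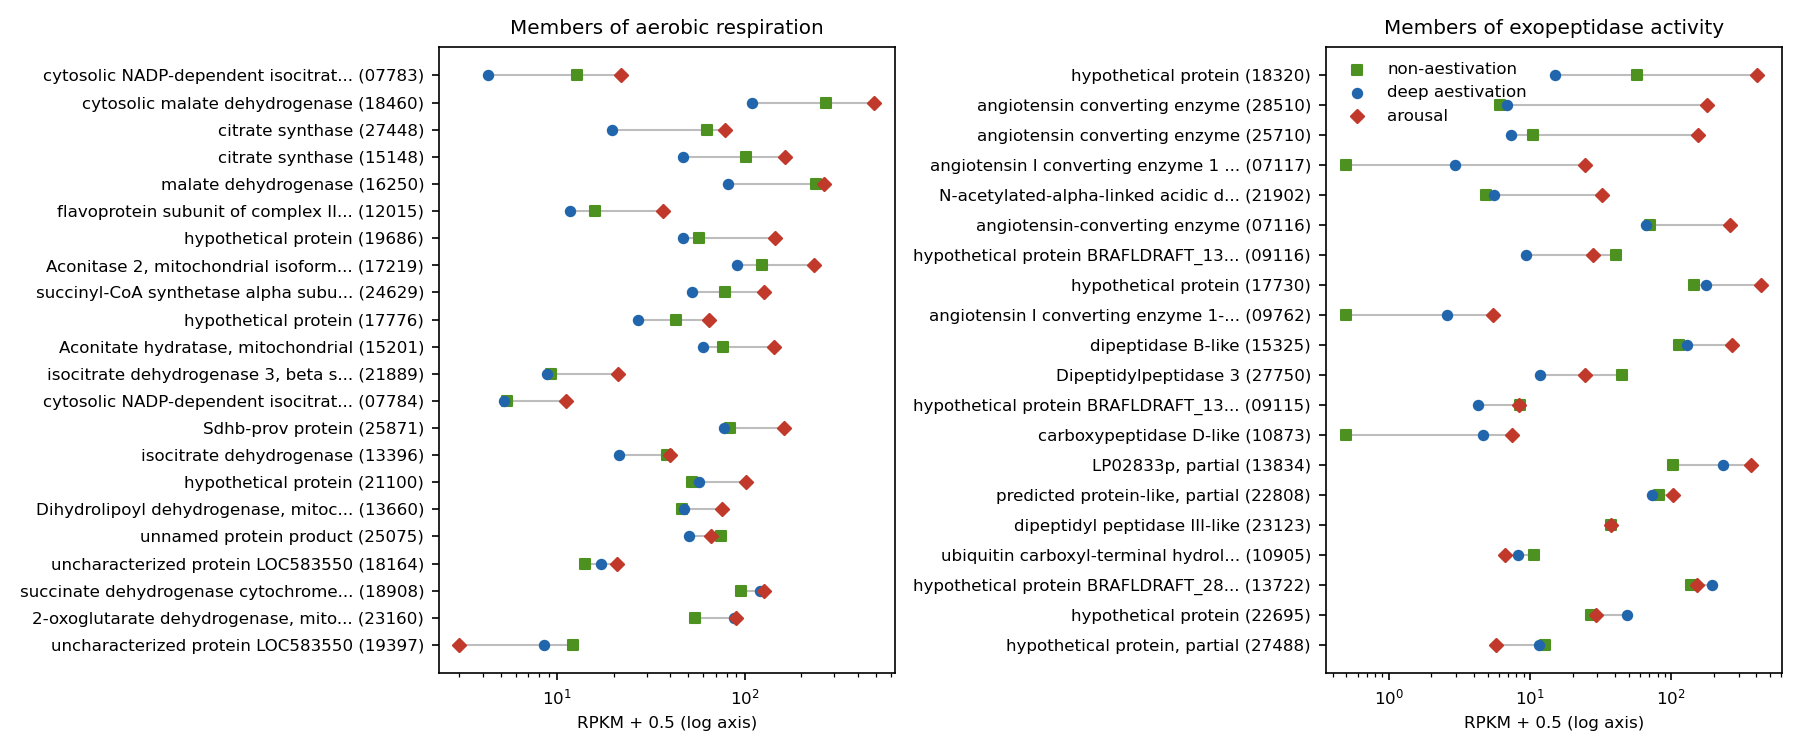
RPKM + 0.5 (log axis) is shown in the 3 libraries for the 22 members of aerobic respiration (left) and the 20 members of exopeptidase activity (right), labelled by protein match and isotig number and ordered by the ratio of arousal to deep aestivation. In aerobic respiration arousal (diamonds) lies above deep aestivation (circles) in 21 of 22 members. In exopeptidase activity this holds for 15 of 20, and 4 matches to angiotensin-converting enzyme lie among the 6 with the highest ratios.

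The respiratory electron transport chain had 4 of 24 members called higher and 0 lower, and a median of 0.64, or 0.55 with members at 0 reads set to the floor. Its members were mostly subunits of NADH dehydrogenase, complex I, which feeds electrons into the chain. Flavoprotein 2 (isotig14970) had 103, 41 and 100 reads in non-aestivation, deep aestivation and arousal (2.30-fold higher, 1.59 to 3.40). The iron-sulfur protein 1 subunit (isotig13442), with the most reads of the term, had 254, 204 and 287 (1.33-fold, 1.11 to 1.60). The term's share of reads was 0.112% in deep aestivation, 0.180% in arousal and 0.173% in non-aestivation.

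Carbohydrate metabolic process had 7 of 22 members higher and 2 lower, with a median of 0.72 and wide quartiles (-0.51 and 1.66). ATP citrate lyase, which makes cytosolic acetyl-CoA for lipid synthesis, was higher in isotig17942 (44, 35 and 156 reads, 4.21-fold, 2.90 to 6.26) and in isotig26955 (12, 10 and 50 reads, 4.72-fold, 2.37 to 10.4). Preamylase 1 (isotig14872), a starch-cutting enzyme of the gut lumen, was lower, with 0, 98 and 2 reads (51.9-fold lower, 14.0 to 434). The lysosomal beta-galactosidase isotig13623 had 129, 165 and 104 reads, with no call.

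Aminoacylation of tRNA, the loading of amino acids for translation, had a median of 0.82, with 26 of 31 members above 0. Of them 1 was called higher and 0 lower, a share of calls below the 5.84% background. Glycyl-tRNA synthetase (isotig13130) had 216, 112 and 230 reads, a ratio of 1.94 (1.54 to 2.45) just short of 2-fold. Most reads of the term, 82.0% in arousal, were in a hypothetical protein. Protein N-linked glycosylation, which adds sugar chains to secreted proteins, had 4 of 26 higher and 1 lower (median 0.65). Its higher members included the amidotransferase that makes glucosamine 6-phosphate (isotig13230, 56, 121 and 259 reads, 2.02-fold, 1.62 to 2.53) and phosphomannomutase (isotig09461, 32, 29 and 66 reads, 2.15-fold, 1.37 to 3.45), while DAD-1, a subunit of the oligosaccharyl transferase (isotig16633), had 967, 692 and 544 reads.

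Response to metal ion had 3 of 30 members higher and 1 lower (median 0.69, or 0.54 with members at 0 reads at the floor). Isotigs matching superoxide dismutases, which remove superoxide, differed from each other. The manganese form of mitochondria (isotig14099) had 142, 81 and 236 reads (2.75-fold higher, 2.13 to 3.59), and a copper/zinc form (isotig17129) had 148, 157 and 29 (5.73-fold lower, 3.84 to 8.83). The first was lowest in deep aestivation and highest in arousal, and the second was lowest in arousal. Another copper/zinc match had 80, 28 and 29 reads in isotig07563 and 21, 26 and 33 in isotig07564, with no call.

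The lowest process terms were biological regulation (median -0.97), regionalization (-0.94), tissue development (-0.87), nervous system development (-0.71), negative regulation of cellular process (-0.60) and organ morphogenesis (-0.58). Biological regulation had 6 of 25 members lower and 1 higher, and negative regulation of cellular process 5 of 20 lower and 0 higher. Tissue development had 2 of 23 lower and 0 higher. Regionalization had 3 of 21 lower, nervous system development 3 of 23 and organ morphogenesis 3 of 31, each with 1 higher. Of all members with a process term 3.96% were called lower and 5.84% higher, so these few calls say little about a term. The term names come from matches to developmental genes of other animals. With members at 0 reads set to the floor, the median of biological regulation was -0.75 and that of nervous system development -0.44.

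Transcription factors and co-regulators were among the lower members. Retinoic acid receptor beta-2 (isotig13508), a nuclear receptor for a vitamin A derivative, had 114 non-aestivation reads, 496 deep aestivation reads and 120 arousal reads (4.37-fold lower, 3.58 to 5.39). The co-repressor SKI, which in vertebrates restrains TGF-beta signalling, had 88, 167 and 44 reads in isotig13855 (4.02-fold lower, 2.87 to 5.73) and 34, 93 and 31 in isotig15898 (3.17-fold lower, 2.09 to 4.93). Id (isotig18286), an inhibitor of basic helix-loop-helix factors, had 32, 65 and 20 reads (3.44-fold lower, 2.06 to 6.0). In these 4 isotigs deep aestivation was the highest library. Forkhead transcription factor C (isotig14053), with 157, 201 and 112 reads (1.90-fold lower, 1.5 to 2.41), and homeodomain protein NK2.1 (isotig14549), with 64, 46 and 23, were not called.

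Secreted signals and their receptors lay with them. Follistatin (isotig25507), which binds activin, had 73, 156 and 8 reads (20.6-fold lower, 10.2 to 48.6). A bone morphogenetic protein 1 match (isotig14688), a metalloprotease that processes matrix proteins in vertebrates, had 24, 59 and 13 reads (4.80-fold lower, 2.60 to 9.55), and a macrophage migration inhibitory factor match (isotig14943) had 48, 51 and 9 (6.0-fold lower, 2.92 to 13.9). Low-density lipoprotein receptor-related protein 6 (isotig22252), a Wnt co-receptor in vertebrates, had 53, 92 and 6 reads (16.2-fold lower, 7.18 to 45.4). The hedgehog precursor isotig15960 had 37, 56 and 44 reads with a ratio near 1 (1.35-fold lower, 0.891 to 2.05).

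Some members of these terms were higher, and 1 carried most reads. An arginine methyltransferase 1 match (isotig17158) had 91, 28 and 94 reads (3.17-fold higher, 2.06 to 5.03), and an acid alpha-glucosidase (isotig09789), a lysosomal enzyme, had 16, 23 and 60 (2.47-fold higher, 1.5 to 4.18). Biological regulation shows how a few transcripts set a share: its reads were 0.329% in deep aestivation and 0.394% in arousal, although its median was low. The beta subunit of prolyl 4-hydroxylase (isotig13164), also known as protein disulfide isomerase, made 71.3% of the term's reads in arousal, with 2006, 1458 and 2652 reads. Without it the term's share was 0.166% and 0.113%.

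Among GO Function terms the highest was the group of oxidoreductases that act on CH-OH groups with NAD or NADP, with 8 of 28 members higher, 2 lower and a median of 1.13 (1.01 with members at 0 reads at the floor). Of members with a function term 6.11% were called higher and 3.98% lower. The group's share of reads was 0.0644% in deep aestivation (0.0593 to 0.0699), 0.213% in arousal (0.204 to 0.223) and 0.121% in non-aestivation. Soluble glycerol-3-phosphate dehydrogenase 1 (isotig13134), which links glycolysis to the glycerol backbone of fats, had 359, 68 and 744 reads (10.3-fold higher, 8.06 to 13.5). Phosphoglycerate dehydrogenase (isotig13269), the first enzyme of serine synthesis, had 77, 18 and 278 reads (14.6-fold, 9.06 to 25). Hydroxyacyl dehydrogenase subunit B (isotig17534), of fatty acid oxidation, had 138, 46 and 173 (3.55-fold, 2.55 to 5.03). In these 3 the order of the libraries was deep aestivation, non-aestivation, arousal. A 15-hydroxyprostaglandin dehydrogenase (isotig16014), which inactivates prostaglandins, had 54, 60 and 21 reads (3.02-fold lower, 1.81 to 5.23).

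Exopeptidases, which trim peptides from their ends, had 9 of 20 members higher and 0 lower, with a median of 1.06. A hypothetical protein (isotig18320) had 54, 12 and 352 reads (27.7-fold, 15.7 to 54.2). Matches to angiotensin-converting enzyme, a dipeptide-releasing zinc peptidase, made up 4 of the 9. Isotig07116 had 288 non-aestivation reads, 236 deep aestivation reads and 986 arousal reads (3.95-fold, 3.42 to 4.57). Isotig07117 had 0, 5 and 52 reads (9.83-fold, 3.95 to 31.5), isotig25710 had 5, 3 and 71 (22.4-fold, 7.35 to 111) and isotig28510 had 2, 2 and 59 (27.9-fold, 7.38 to 236). The arousal reads covered 46.6% of isotig07116 and 5.75% of isotig07117, against 95.7% of isotig25710 and 94.3% of isotig28510. In these 4 isotigs arousal stood above both other libraries. Isotig25710 and isotig28510 share the same best match. Dipeptidase B (isotig15325) had 153, 153 and 339 reads (2.09-fold, 1.72 to 2.55). The term's share of reads was 0.156% in deep aestivation, 0.354% in arousal and 0.127% in non-aestivation.

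Endopeptidase activity had 7 of 49 members higher and 2 lower, and its median of 0.70 became 0.40 with members at 0 reads at the floor. Legumain (isotig24749), a lysosomal protease that cuts after asparagine, had 365, 350 and 977 reads (2.64-fold, 2.33 to 2.99), and an anionic trypsin-1 match (isotig13029) had 54, 35 and 216 (5.83-fold, 4.07 to 8.59). The trypsin-like isotig21645 described above, another trypsin match, was lower but is not listed under this term. Of the term's members, matrix metalloproteinase 16 (isotig24202), which cleaves extracellular matrix, had 32, 48 and 14 reads (3.63-fold lower, 1.97 to 7.13). An endoprotease match (isotig13385) had 59, 137 and 57 reads (2.54-fold lower, 1.85 to 3.53). Pyrophosphatase activity (median 0.67, or 0.51 at the floor) had 1 of 28 members higher, and aminoacyl-tRNA ligase activity (0.73) 1 of 34.

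Coenzyme binding had a median of 0.58, which became 0.11 with its 10 members at 0 reads set to the floor, and 2 members each way among 41. Its share of reads was lower in arousal, 0.214% against 0.380% in deep aestivation. Long-chain acyl-CoA dehydrogenase isotig13249 and the dual oxidase-A isotig13477, a maker of hydrogen peroxide with 1066, 1223 and 717 reads, carried much of that difference. Another isotig with the same acyl-CoA dehydrogenase match, isotig14354, had 39, 9 and 92 reads (9.66-fold higher, 4.87 to 21.8).

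Of the lowest function terms, receptor activity (median -0.79, or -0.49 at the floor) had 3 of 20 members lower and 0 higher, and receptor binding (-0.61, or -0.38) 5 of 28 lower and 1 higher. The low-density lipoprotein receptor isotig23101, which takes lipoproteins into cells, had 114, 237 and 14 reads (17.9-fold lower, 10.5 to 33.3). Serum amyloid A (isotig08093), an acute phase protein, had 17, 69 and 0 reads, and its reads covered 17.7% of its length in deep aestivation. Its level was 24.3-fold lower with 0 reads at the floor, and its interval starts at 19.3. The terms of protein domain specific binding (-0.59), phosphatases (-0.50), motor proteins (-0.47) and protein kinases (-0.37) had few calls. Of their members 1 of 42, 2 of 22, 1 of 46 and 2 of 88 were lower, and 0, 1, 0 and 1 higher. Of all members with a function term 3.98% were called lower and 6.11% higher. The higher kinase, an oncoprotein match (isotig10259), had the most reads of its term, with 926, 212 and 543 (2.42-fold higher, 2.06 to 2.85). The median of motor proteins became -0.15 with members at 0 reads at the floor. Within the phosphatases the phosphoserine phosphatase isotig16443 was far higher, and phogrin (isotig14346), a protein of secretory granules in vertebrates, had 122, 191 and 95 reads (2.13-fold lower, 1.66 to 2.75). Kinesin heavy chain (isotig13276), a microtubule motor, had 87, 136 and 166 reads and was not called.

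Among GO Component terms the mitochondrial ones stood highest. Organelle inner membrane had 12 of 67 members higher and 0 lower, where 5.37% of members with a component term were higher and 3.53% lower, with a median of 0.95 (0.82 at the floor). Mitochondrial part had 11 of 54 higher and 0 lower (0.69, or 0.54), mitochondrion 6 of 29 higher and 2 lower (0.68, or 0.59) and mitochondrial envelope 3 of 25 higher and 1 lower (0.89). Some members are listed under several of these terms. Aspartate aminotransferase 2 (isotig13106), of the malate-aspartate shuttle, had 267 non-aestivation reads, 137 deep aestivation reads and 494 arousal reads (3.41-fold, 2.81 to 4.15). The trifunctional hydroxyacyl-CoA dehydrogenase of fatty acid oxidation (isotig06387) had 187, 55 and 200 reads (3.44-fold, 2.54 to 4.72), and 3-hydroxyisobutyryl-CoA hydrolase (isotig14783), of valine breakdown, had 28, 13 and 53 (3.85-fold, 2.07 to 7.70). Metaxin 1 (isotig19254), of the outer membrane import machinery, had 31, 12 and 38 (2.99-fold, 1.53 to 6.29).

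Cytochrome c oxidase, which passes electrons to oxygen, varied by isotig. Its subunit 1 (isotig07060), encoded in the mitochondrial genome of animals, had 6684, 6209 and 6137 reads (1.07-fold lower, 1.03 to 1.11). Subunit Va, encoded in the nucleus, had 204, 111 and 115 reads in isotig09535 (1.02-fold lower, 0.780 to 1.34) and 302, 125 and 382 in isotig09536 (2.89-fold higher, 2.35 to 3.56). Subunit 1 made 49.4% of the reads of organelle inner membrane in deep aestivation and 40.2% in arousal. Without it the share of the term was 0.713% and 0.967%. In the mitochondrial envelope, isotig13249 made 74.8% of the reads in deep aestivation. With it the share was 0.191% in deep aestivation and 0.112% in arousal, and without it 0.0481% and 0.0830%.

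The vesicular fraction had 5 of 40 members higher and 3 lower (median 0.54). Detoxifying enzymes of the endoplasmic reticulum stood at its top: microsomal glutathione S-transferase 3 (isotig13637) with 169, 67 and 311 reads (4.39-fold, 3.36 to 5.80), microsomal glutathione S-transferase 2 (isotig17791) with 169, 93 and 282 (2.87-fold, 2.26 to 3.66) and epoxide hydrolase 1 (isotig14847) with 95, 70 and 187 (2.52-fold, 1.91 to 3.37). Deep aestivation was lowest and arousal highest in each. The chaperone heat shock 70kDa protein 5 (isotig13452), of the same compartment, had 725, 541 and 827 reads (1.44-fold, 1.29 to 1.61). Membrane fraction had 3 of 22 members higher and 2 lower (median 0.43).

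The extracellular region had 7 of 26 members lower and 1 higher, with a median of -0.83 (quartiles -2.38 and -0.28). Its share of reads was 0.291% in deep aestivation (0.280 to 0.302), 0.0944% in arousal (0.0883 to 0.101) and 0.144% in non-aestivation. Fibropellin Ia, an extracellular matrix protein first known from sea urchin embryos, had 166, 475 and 76 reads in isotig07655 (6.61-fold lower, 5.18 to 8.54). Another fibropellin match made 42.5% of the term's reads in deep aestivation, and without it the shares were 0.167% and 0.0682%. The single higher member was the angiotensin-converting enzyme isotig25710. Hemicentin-1 (isotig19746), of basement membranes, had 65, 73 and 138 reads (1.79-fold, 1.34 to 2.41). Tissue inhibitor of metalloproteinase-2 had 71, 76 and 74 reads in isotig19926, with no call, and 3 further isotigs with this match were lower, the deepest of them (isotig13605) with 57, 90 and 8 reads (11.9-fold lower, 5.79 to 28.4).

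Plasma membrane also had 7 members lower, of 36, and 1 higher (median -0.83). The nicotinic acetylcholine receptor alpha2 subunit (isotig17738), a neurotransmitter-gated channel, had 156, 139 and 34 reads (4.33-fold lower, 2.96 to 6.49). A cadherin (isotig17993), which joins neighbouring cells, had 17, 47 and 13 (3.83-fold lower, 2.04 to 7.71), and aquaporin-4 (isotig15882), a water channel, had 125, 70 and 25 (2.96-fold lower, 1.85 to 4.88). A match to multiple epidermal growth factor-like domains (isotig09139) was higher, with 219, 39 and 200 reads (4.85-fold, 3.42 to 7.02). The receptor and the aquaporin had their highest reads in non-aestivation, the cadherin in deep aestivation.

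Transcription factor complex (median -0.62), Golgi apparatus part (-0.42), intracellular organelle part (-0.27) and microtubule associated complex (-0.26) were the other lowest component terms. They had 0, 1, 3 and 0 members called lower, of 21, 32, 37 and 22. Intracellular organelle part and microtubule associated complex lay close to the median of all members (-0.20), with offsets of -0.068 and -0.055. With members at 0 reads at the floor the medians were -0.53, -0.33, -0.23 and -0.03, beside -0.075 over all members. The ratios of their shares of reads, arousal over deep aestivation, were 0.744, 0.914, 0.658 and 1.13. TAF5 (isotig15957), of the general transcription factor TFIID, had 69, 78 and 47 reads (1.76-fold lower, 1.21 to 2.58). No member of these 4 terms was called higher.

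**Figure D5:**
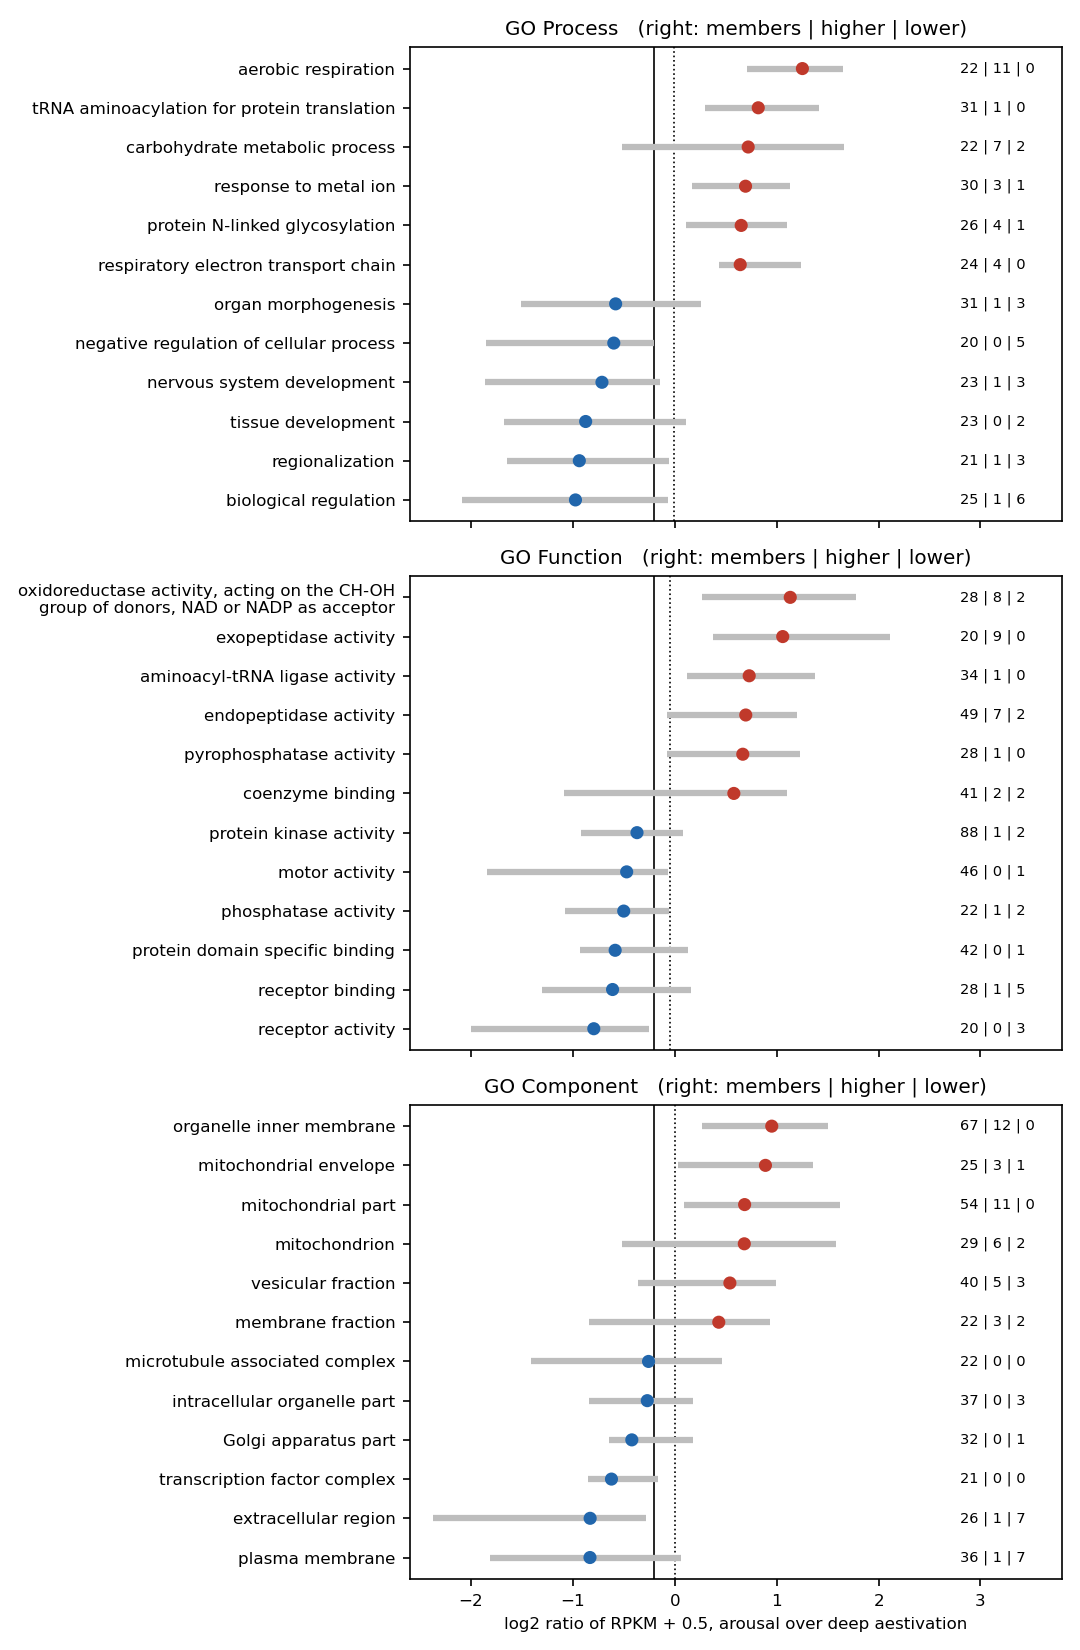
Points give the median log2 ratio of RPKM + 0.5, arousal over deep aestivation, of the 6 highest (red) and 6 lowest (blue) GO terms of each ontology, and grey bars run from the lower to the upper quartile of the members. The solid line is the median of all members (-0.20) and the dotted line that of members with a term in the ontology. Numbers on the right give the members, those called higher and those called lower. Aerobic respiration stands highest at 1.25 and biological regulation lowest at -0.97.

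The largest terms mostly lay near the medians of the annotated members. Cellular process had 10 of 222 members lower and 3 higher (median -0.20), transport 5 of 145 lower and 6 higher (-0.04), and protein modification process 3 of 130 each way (-0.23). Metabolic process was an exception, with 15 of 135 higher, 8 lower and a median of 0.59. Binding had 40 of 707 higher and 35 lower (-0.08), protein binding 13 of 364 higher and 22 lower (-0.08), nucleic acid binding 5 of 212 higher and 3 lower (-0.06) and metal ion binding 14 of 201 higher and 7 lower (-0.07). Intracellular membrane-bounded organelle had 45 of 746 higher and 27 lower (0.16), and membrane 21 of 356 each way (-0.06).

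Summed reads moved by at least 2-fold in 9 of the 218 terms. They were aerobic respiration, the CH-OH oxidoreductases, exopeptidases, tissue development, negative regulation of cellular process, receptor activity and the extracellular region, described above, with cellular protein complex assembly and one-carbon metabolic process. Complex assembly had 0.156% of reads in deep aestivation and 0.330% in arousal (2.12-fold higher). A beta-tubulin (isotig13326) was its leading member, and without it the term was 2.51-fold higher. Without their leading member the exopeptidases were 1.93-fold higher. Retinoic acid receptor beta-2 (isotig13508) led both tissue development and negative regulation of cellular process. Without it the first had 0.0658% in deep aestivation and 0.0397% in arousal, under 2-fold apart, and the second 0.0641% and 0.0278%. One-carbon metabolic process had 0.355% of reads in deep aestivation and 0.0875% in arousal, and betaine-homocysteine S-methyltransferase isotig13345 made 81.9% of the former. Without that isotig the shares were 0.0642% and 0.0837%.

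Markers of gut epithelium, the labelled tissue, were found in all 3 libraries, with matches to 7 of 8 and none to meprin. Villin itself, of the brush border, had 2, 6 and 5 reads (isotig15949). The name search also took in related proteins, of which advillin (isotig13407) had 568, 538 and 846 reads. The list summed to 18125, 7144 and 58578 RPM. Intestinal fatty acid binding protein alone had 16577, 2850 and 51381 of its reads. Of its 28 members 5 were higher and 4 lower (median -0.22). Sucrase-isomaltase matches, which cut sugars at the cell surface, split between isotig13501 (161, 124 and 413 reads, 3.15-fold higher, 2.57 to 3.88) and isotig13530 (17, 104 and 8 reads, 13.8-fold lower, 6.73 to 32.7). Cubilin, an endocytic receptor, split as well, with isotig13982 at 73, 58 and 15 reads (4.09-fold lower, 2.29 to 7.77) and isotig25069 at 5, 13 and 51 (3.71-fold higher, 1.99 to 7.43).

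Lists for other cell types held fewer reads. Sums here and above cover every isotig that a list matched, also those that were not members, while calls count members only. The muscle, neuronal, coelomocyte and gonad sums cover 45, 37, 34 and 23 isotigs. Over all members 3.42% were called higher and 5.39% lower. Muscle markers summed to 2190, 1679 and 1496 RPM in non-aestivation, deep aestivation and arousal, with 3 of 34 members higher and 0 lower, and paramyosin had no match. Neuronal markers summed to 836, 1289 and 910, with 10 of 33 lower and 5 higher, and syntaxin-1 had no match. Most of their called members were acetylcholinesterase matches, and the family of that enzyme also holds esterases outside neurons. Coelomocyte markers summed to 555, 669 and 561, with 1 of 28 lower and 0 higher, and 2 of 5 markers had no match. Gonad markers summed to 124, 193 and 151, with 0 of 15 called, and vasa, piwi, vitelline and zona pellucida had no match. The part of these cell types in the results above was not tested.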

How the data were processed

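The authors deposited, for each of the 3 libraries, counts of uniquely aligned reads per isotig, per the file headers. They also deposited RPKM values and the percent of each isotig's bases that reads covered, per the file headers. CASAVA 1.5 is named in the submitters' processing notes, and the aligner, assembler and build were not given in the sources used here. Total RNA was enriched for mRNA with oligo(dT) beads, per the labels' protocols.

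Samples were grouped by their stage label, with 1 library per stage. An isotig missing from a table was taken as 0 reads. Log2 ratios used RPKM + 0.5, folds are ratios of counts scaled to each library's aligned reads, with exact conditional binomial intervals, and shares of reads have exact (Clopper-Pearson) 95% binomial intervals. GO terms with at least 20 members were described by counts and medians. Members and lists were chosen with earlier results of these data known.

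Named isotigs were the 12 highest and 12 lowest ratios among named matches with at least 50 reads and a mean of at least 5 RPKM, the 10 largest differences in RPM each way, and up to 3 members each way with at least 50 reads from the 6 highest and 6 lowest terms per ontology. A term sharing over 70% of its members with one already taken was left out, and the 5 largest terms per ontology were added. Further members of aerobic respiration, the exopeptidases, the marker lists, isotigs that share a named match and the leading members of terms were named after their values were seen. Marker lists for gut epithelium, muscle, neuron, gonad and coelomocyte were searched for in the names of the best protein matches. Alternatives changed the pseudocount, the low-value filter, the scaling, the interval, the unit, the term size and the treatment of 0 reads. The calculation was tested on simulated data. Python 3.11.15, numpy 2.4.6, pandas 2.3.3, scipy 1.17.1 and matplotlib 3.10.9 were used.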

Additional observations from a re-analysis of the deposited data

How the results depend on the processing

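No paired analysis was possible because each stage has 1 library. For the same reason no replicate could be left out, and differences between animals were not measured. The 38 isotigs named by ratio or by difference that were recomputed kept their call with a pseudocount of 1 and under the 3 other scalings. They were chosen from these data for large ratios or differences, and the scalings moved the median log2 ratio by at most 0.14. The choice itself therefore favoured keeping the calls. Summing isotigs with the same match did not check them, because the 4 it left under their own names have no protein match. With a 95% interval 1183 isotigs were higher and 1956 lower, and with a 2-fold difference alone 2808 and 4706, against 619 and 975. The median log2 ratio of all members was -0.20, and became -0.074 with median-ratio scaling, -0.064 with upper-quartile scaling, -0.12 without the 20 most abundant isotigs and -0.075 with 0 reads set to a floor of 3 reads. Terms at least 0.5 above that median numbered 32, and 12 among terms of at least 40 members. Terms at least 0.5 below it numbered 7, then 2 with a mean of at least 5 RPKM and 0 with at least 40 members. The 9 terms with shares of reads at least 2-fold apart became 3 with at least 5 RPKM and 0 with at least 40 members, a count chosen after seeing the data. Isotigs with fewer than 10 reads over both libraries could not be called.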

Other observations

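Of the 722 named protein matches shared by several isotigs, 169 had an isotig called in either direction and 10 had isotigs called both ways. These isotigs were picked after their values were seen. An ependymin-related protein, of a secreted family found widely in animals, had 124 non-aestivation reads, 546 deep aestivation reads and 229 arousal reads in isotig07194 (2.52-fold lower in arousal, 2.16 to 2.96). In isotig07195 the same match had 351, 308 and 691 reads (2.12-fold higher, 1.85 to 2.43). The fructose transporter match, of a family that carries sugars across membranes, had 94, 210 and 540 reads in isotig13835 (2.43-fold higher, 2.07 to 2.86) and 6, 42 and 12 in isotig14264 (3.70-fold lower, 1.91 to 7.73). The metalloproteinase inhibitor TIMP had 41, 114 and 22 reads in isotig15867 (5.48-fold lower, 3.45 to 9.09) and 24, 42 and 100 in isotig27318 (2.25-fold higher, 1.55 to 3.31). Whether such isotigs are separate genes, variants or parts of 1 transcript was not tested.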
